A study of Homo sapiens with 44 samples.

Results

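The proteins of the cytosolic ribosome are encoded by genes named RPL for the large and RPS for the small subunit. They were taken here as the gene names RPL or RPS followed by a number and an optional letter ending, together with RPSA, RPLP0, RPLP1 and RPLP2, without the RPS6K kinases. This rule gave 87 of 19923 protein-coding genes, 53 with large subunit and 34 with small subunit names, on 22 chromosomes. It includes the paralogues RPL3L, RPL7L1, RPL10L, RPL22L1, RPL26L1, RPL36AL, RPL39L and RPS27L. The rule used names alone and no measured value. FAU, which encodes a ribosomal protein fused to a ubiquitin-like protein, carries another name and was placed among other translation genes.

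Ribosomal protein mRNAs are short, very abundant and stable. Most of them begin with a cytosine followed by a run of pyrimidines, the 5' terminal oligopyrimidine (TOP) tract, through which mTOR signalling controls their translation as a group. N6-methyladenosine (m6A) is written into nuclear-made mRNA by the METTL3-METTL14 methyltransferase, preferentially in long internal exons and last exons, while exon junction complexes keep it away from short exons. MYCN, the oncogene amplified in both cell lines studied here, is a known driver of ribosome production.

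The samples were wild-type Kelly and NGP cells, both MYCN-amplified human neuroblastoma lines, and tumours grown from Kelly cells under the skin of male and female nude mice. STM2457, an inhibitor of METTL3, was given to cells at 8 µM, with DMSO as control, for 1 day (Kelly) or 6 days (Kelly and NGP). The mice received 50 mg/kg STM2457, or vehicle alone (labelled DMSO), by daily intraperitoneal injection for 14 days. From each group, fragmented poly(A) RNA was sequenced before (input) and after pull-down with an m6A antibody (RIP), which gave 44 libraries in 16 groups, with n = 3 libraries per group in culture and n = 2 per group in tumours. The labels do not say whether replicates were separate cultures or which input and RIP libraries share an RNA, so p-values measure the spread between these libraries, which may be technical.

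The libraries held 2144870 to 36497858 counted fragments, and the STM2457 tumour inputs were among the shallowest, with 3189750 and 2144870. Neuroblastoma markers (HAND2, MYCN and others) summed to between 12289 and 37476 counts-per-million units (CPM) in the inputs, and markers of stroma and blood to between 87.3 and 199. Counts were made against human genes alone, so mouse cells of the tumours were not measured as such. In such bulk RNA, fewer cells of a type and less RNA per cell cannot be told apart. Fragments that map to several places in the genome were not counted, per the headers, and ribosomal protein genes have many processed pseudogenes, so the levels of members with close copies may be understated.

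The annotated start sites show the TOP tract at sequence level. Of the 70 members with a RefSeq promoter entry, 48 (68.6%) had a cytosine at the start followed by at least 4 further C or T. Such a tract was found in 905 of 15015 other genes (6.03%) and 6 of 69 mitochondrial ribosomal protein genes (8.70%). The other translation genes were listed for having a TOP tract. Their count, 13 of 14, therefore follows from that choice and says nothing about translation genes in general. The windows below hold 10 bases before and 20 bases from the start, on the gene's strand, with the starting cytosine and the pyrimidines that follow it in capitals (RefSeq, GRCh38.p14). The first group are members with a tract to which the results below return: RPSA lies at chr3:39406710-39406739 (+), RPS6 at chr9:19380217-19380246 (-), RPLP0 at chr12:120201092-120201121 (-), RPL24 at chr3:101686699-101686728 (-) and RPL34 at chr4:108620566-108620595 (+).
RPSA: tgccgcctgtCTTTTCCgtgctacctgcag
RPS6: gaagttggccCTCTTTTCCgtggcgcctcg
RPLP0: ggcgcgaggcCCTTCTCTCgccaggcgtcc
RPL24: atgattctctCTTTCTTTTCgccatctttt
RPL34: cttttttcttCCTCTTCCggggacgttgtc
The second group are a pair of paralogues and one further pair, printed because their members behaved unlike each other: RPS27 at chr1:153990752-153990781 (+), RPS27L at chr15:63157458-63157487 (-), RPL36A at chrX:101391001-101391030 (+) and RPL36AL at chr14:49620607-49620636 (-).
RPS27: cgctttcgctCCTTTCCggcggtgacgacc
RPS27L: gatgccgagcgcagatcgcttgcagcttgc
RPL36A: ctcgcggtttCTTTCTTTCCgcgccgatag
RPL36AL: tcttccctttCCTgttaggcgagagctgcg
RPS27 and RPL36A have tracts of 7 and 10 pyrimidines at the annotated start. RPS27L has none, and RPL36AL has 3. A window without a tract says only that these letters are not at the annotated start. RPL34 has another annotated start, with its window at chr4:108620619-108620648 (+), that lacks a tract.

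In the DMSO inputs the members together held between 8.16% and 8.53% of all counts in 1-day Kelly cells, between 16.0% and 16.2% in 6-day Kelly cells, between 13.7% and 13.9% in NGP and 14.2% and 14.9% in the tumours. The 2 Kelly experiments did not overlap, but per the headers their libraries came from separate folders, and experiment and processing cannot be told apart. In 1-day Kelly cells the inputs and the RIP libraries also came from separate folders, while each other experiment lay in a single folder. Whether folders are sequencing batches is not stated. Per length, as CPM per kilobase of merged exons (RPKM), the median member level was 243 in 1-day Kelly cells, 382 in 6-day Kelly cells, 388 in NGP and 309 in the tumours, while the median over all genes of at least 1 CPM was 5.52, 3.85, 4.65 and 3.69. These RPKM depend on the length used: with the canonical transcript in place of the merged exons, a choice made after seeing the data, the member medians became 883, 1312, 1466 and 1233. Among the members with the highest RPKM were RPS18 (1410 ± 26.3, SD, n = 3) and RPL7A (1288 ± 41.7) in 1-day Kelly cells. RPL13A (3816 ± 82.3), RPL19 (2678 ± 60.4) and RPS2 (2609 ± 39.5) led in 6-day Kelly cells. In NGP the highest were RPL19 (3111 ± 481), RPL13A (2266 ± 235) and RPS15 (1785 ± 154). In the tumours they were RPL13A (2819 ± 240, n = 2), RPS2 (2352 ± 12.9) and RPL35 (2112 ± 153).

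Whether ribosomal protein mRNAs were recovered by the m6A antibody was read from the ratio of RIP over input in DMSO, on a log2 scale where trimmed-mean (TMM) scaling places the typical gene near 0. Nearly all members were depleted in Kelly cells. The 1-day inputs and RIP libraries came from separate folders, so library type and folder cannot be told apart in the 1-day ratios. At 1 day, 77 of 84 tested members were lower in RIP than in input by at least 2-fold and 1 was higher, with a median log2 of -3.57, or 11.9-fold; of all genes tested, 29.1% were lower and 26.3% higher, with a median of -0.07. At 6 days, 76 of 84 were lower and 1 higher, with a median of -4.38 (20.9-fold), against 27.3% and 25.8% of all genes and a median of -0.10. In NGP, 50 of 84 were lower and 5 higher, with a median of -1.48 (2.80-fold), against 19.0% and 20.9% of all genes and a median of 0.08. In the tumours, 49 of 84 were lower and 1 higher, with a median of -3.24 (9.42-fold), against 2.15% and 1.61% of all genes and a median of -0.16. Calls are from the quasi-likelihood test of edgeR at 0.05 after Benjamini-Hochberg adjustment over all genes tested. In the tumours 0 members were called lower without either STM2457 input, which enter the fit through the shared spread, and 25 without the second vehicle RIP library.

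Members of both subunits were depleted. The large subunit median was -3.42 in 1-day Kelly cells, -4.21 in 6-day Kelly cells, -0.84 in NGP and -2.96 in the tumours. The small subunit medians were -4.11, -4.63, -1.86 and -3.68, lower than those of the large subunit in each experiment. Of the 83 members tested in all 4 experiments, 43 were lower by at least 2-fold in every one, against 1.77% of the 11679 genes tested in all 4, and 67 had a log2 ratio below 0 throughout. Across members, the log2 ratios of 1-day Kelly cells had a Spearman correlation of 0.745 with those of 6-day Kelly cells, 0.630 with NGP and 0.755 with the tumours. That of 6-day Kelly cells with NGP was 0.328, against 0.583 over all genes tested (n = 83 or 84 members; the points share gene length and base composition, and genes are not independent).

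The scale of these ratios is relative. Scaled instead to the 13 mRNAs encoded by mitochondrial DNA, which lie outside the reach of the nuclear methyltransferase, the typical gene moved to a log2 of 1.57, 4.77, 0.80 and 2.02, and the members with it. The member median then became -1.94 in 1-day Kelly cells, 0.46 in 6-day Kelly cells, where the sign turned, -0.79 in NGP and -1.07 in the tumours. The mitochondrial mRNAs themselves varied between DMSO RIP libraries. They held 0.794% to 0.920% of counts in 1-day Kelly cells, 0.0767% to 0.302% in 6-day Kelly cells, 1.40% to 2.19% in NGP and 1.02% to 4.78% in the tumours. The part of this spread in the shifted values was not tested. A change of scaling shifts all genes of a library alike, so it leaves the distance from the members to all genes in place, which on the TMM scale was -3.51 in 1-day Kelly cells, -4.28 in 6-day Kelly cells, -1.57 in NGP and -3.08 in the tumours. With mitochondrial scaling, 63, 1, 33 and 0 members were lower by at least 2-fold, and 3, 16, 8 and 0 were higher. Of the 13669, 13324, 13088 and 12626 genes tested, 1116, 45, 975 and 0 were then lower and 6948, 10965, 4905 and 0 higher.

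The lowest ratios belonged to core subunit genes. By the mean over the 4 experiments, RPS2 (-4.48), a small subunit protein near the mRNA entry channel, RPLP1 (-4.35), an acidic protein of the stalk that recruits elongation factors, and RPS9 (-4.33), which binds 18S rRNA early in assembly, were the lowest of 83. RPS2 was at 2365, 2420 and 2215 CPM in the DMSO inputs of 1-day Kelly cells and at 60.9, 68.4 and 73.9 CPM in the RIP libraries. Every RIP value lay far below every input value (33.1-fold lower, log2 -5.05, SE 0.09, adjusted p = 2.9e-13). In NGP, RPS2 was at 3875, 3583 and 4080 CPM in input and 278, 368 and 252 in RIP (log2 -3.78, SE 0.21, adjusted p = 1.8e-11). In the tumours it was at 5639 and 5595 CPM in input and 207 and 292 in RIP (log2 -4.45, SE 0.45, adjusted p = 0.005), again with no overlap.

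RPLP1 was at 1356, 1492 and 1290 CPM in input and 41.5, 33.2 and 35.3 in RIP in 1-day Kelly cells, the lowest ratio of that experiment (log2 -5.17, SE 0.17, adjusted p = 1.7e-11). RPS26, which contacts mRNA at the exit channel, followed RPS2 there, with 178, 157 and 165 CPM in input and 7.23, 5.63 and 3.13 in RIP (log2 -4.89, SE 0.31, adjusted p = 1.3e-08). At 6 days in Kelly the lowest were RPL34, RPS23 and RPS27, with log2 ratios of -6.35 (SE 0.59), -5.99 (SE 1.07) and -5.70 (SE 0.50). In NGP the ratio of RPL34 was 0.18, that of RPS23 0.99 and that of RPS27 -0.76. They were chosen as the lowest in Kelly, so their distance to NGP is no measure of the family's. RPS23, a protein of the decoding centre, was at 269, 633 and 307 CPM in input and 8.03, 8.5 and 3.13 in RIP in 6-day Kelly cells. In NGP it was at 410.5, 758 and 445 CPM in input and 682, 1637 and 1092 in RIP, so that the order of the 2 library types was opposite in the lines on the TMM scale. In NGP the lowest were RPS2, RPS9 (-3.59) and RPS28 (-3.19), and in the tumours RPS12 (-5.05), RPS16 (-4.93) and RPS3 (-4.87).

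The difference between the lines was itself tested. On the TMM scale, the log2 ratio in DMSO was lower in 6-day Kelly cells than in NGP for 73 of 85 members and higher for 0, with a median difference of -2.61; of all genes, 23.9% were lower and 22.2% higher, with a median of -0.08. Beside the members, all 13 mitochondrially encoded mRNAs were lower in Kelly as well, with a median difference of -3.95. Scaled to these mRNAs, an alternative added after seeing the data, the direction turned: 33 members were higher in Kelly and 2 lower, with a median difference of 1.44, while all genes moved to a median of 3.91 (10442 higher, 102 lower). The members' share of RIP counts was 1.27%, 1.45% and 1.10% in 6-day Kelly cells and 4.52%, 7.26% and 6.03% in NGP. The part of what moved the mitochondrial mRNAs in the members' difference was not tested.

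RPL36AL was the only member called higher in RIP in every experiment, and in NGP it was among 5 members called higher. It is an autosomal paralogue of the X-linked RPL36A, at chr14:49618530-49620626 on the minus strand, with 2 exons, the last of 611 bases in a transcript of 676 bases. In 1-day Kelly cells it was at 105, 96.1 and 108 CPM in the DMSO inputs and 535, 512 and 550.1 in RIP (5.39-fold higher, log2 2.43, SE 0.09, adjusted p = 3.7e-11). After 6 days in Kelly the values were 196, 260.2 and 214 CPM in input and 1939, 3827 and 1188 in RIP (log2 3.31, SE 0.51, adjusted p = 0.00014). All RIP values lay above all input values. In NGP RPL36AL was at 154, 311 and 180 CPM in input and 1838, 2899 and 3311 in RIP (log2 3.55, SE 0.29, adjusted p = 1.7e-09). In the tumours it was at 114 and 136 CPM in input and 2079 and 768 in RIP (log2 3.49, SE 0.54, adjusted p = 0.014), a call lost when any of the 4 tumour inputs was left out (adjusted p between 0.060 and 0.088) and with mitochondrial scaling (log2 5.43, adjusted p = 0.067). The transcript contains no GGAC, the most common core of the m6A motif. The next gene, MGAT2, starts 172 bases away on the opposite strand and shares no exon with it.

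Its paralogue RPL36A was on the other side. RPL36A was at 19.6, 21.3 and 18.6 CPM in input and 2.98, 4.03 and 6.15 in RIP in 1-day Kelly cells (log2 -2.12, SE 0.34, adjusted p = 0.00011). In the other 3 experiments its log2 ratio was -2.15, -0.25 and -1.92, and none of these passed the test. Its exons overlap those of GLA and of the readthrough gene RPL36A-HNRNPH2, and fragments shared with them were not assigned, so its level is uncertain.

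Other members near or above the typical gene were few. RPL7L1, a nucleolar assembly protein and paralogue of RPL7, had log2 ratios of 0.75, 0.47, 1.03 and 1.02, the second highest mean (0.82). In NGP it was at 136, 116 and 124 CPM in input and 310, 243 and 264 in RIP, without overlap (SE 0.19, adjusted p = 6.4e-05). RPL7 itself had ratios of -3.02, -3.80, 0.08 and -2.51. RPL3L, a muscle paralogue of RPL3, followed by its mean (0.60), but it had 512 counts over all 44 libraries together and no ratio past the test. In NGP, 2 further paralogues passed upward: RPL22L1 (log2 1.30, SE 0.27, adjusted p = 0.00031) and RPL26L1 (log2 1.27, SE 0.31, adjusted p = 0.0013). Both were called lower in 6-day Kelly cells, with -3.32 and -2.08, signs that turned with mitochondrial scaling (1.72 and 2.61). The fifth member called higher in NGP was RPL41 (log2 1.20), the smallest ribosomal protein, singled out after its value was seen.

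The transcripts of the members share a build that the selection by name did not use. Their canonical transcripts had a median length of 848 bases, against 2946 for all genes, a median of 5 exons against 8, and a longest exon of 344 bases at the median against 1521. The longest exon was at most 500 bases in 54 of the 87 members (62.1%), against 15.6% of other genes. The motif core GGAC occurred 2.92 times per kilobase at the median, against 3.74 for all genes, and 5 members had none. In 1-day Kelly cells, other genes whose canonical exons were all at most 500 bases had a median log2 ratio of -1.53 (n = 1656). Other genes of at least 100 CPM in the DMSO inputs had -1.14 (n = 2254), and those that met both conditions had -2.32 (n = 358). The member median of -3.57 lay below all of these. The same order held in 6-day Kelly cells, with -2.44 for genes that met both conditions against -4.38, in NGP with -1.20 against -1.48, and in the tumours with -1.86 against -3.24. These are descriptions of gene classes and no tests.

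Within the family, exon size went little with the ratio. Members with canonical exons of at most 500 bases had a median of -3.80 in 1-day Kelly cells (n = 52) and those with a longer exon -3.35 (n = 32). The Spearman correlation of the ratio with the longest merged exon was -0.064, -0.102, -0.093 and -0.049 in 1-day Kelly cells, 6-day Kelly cells, NGP and the tumours. With the longest exon of the canonical transcript it was 0.284, 0.168, 0.252 and 0.277, and with the DMSO input level -0.393, -0.232, -0.454 and -0.322 (n = 83 or 84 members). Of the features set against the ratio, GC content of the canonical transcript had the correlation farthest from 0 in NGP (-0.587) and in the tumours (-0.350), with -0.301 in 1-day Kelly cells and -0.092 in 6-day Kelly cells. The input level enters the ratio itself as its denominator. RPS24, with a canonical transcript of 534 bases, had ratios of -0.80, -0.62, 0.82 and 0.42, near those of typical genes (chosen after its values were seen).

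The effect of METTL3 inhibition on the mRNA levels was read from the inputs. In each of the 3 culture experiments more members were called lower with STM2457 than higher, and the median changes were small. In 1-day Kelly cells, 32 of 84 members were lower and 1 higher, with a median log2 of -0.10, against 8.06% of all genes lower and 9.41% higher. In 6-day Kelly cells, 62 of 84 were lower and 2 higher, with a median of -0.38 (1.30-fold), against 14.7% lower and 11.9% higher. In NGP, 35 of 83 were lower and 0 higher, with a median of -0.53 (1.44-fold), against 2.16% lower and 2.07% higher; 82 of the 83 had a log2 below 0. The medians over all genes were 0.01, -0.00 and 0.01. In one fit of all 22 inputs, which assumes 1 spread for all experiments, 0 members were called lower in 1-day Kelly cells, 42 in 6-day Kelly cells and 56 in NGP. Of the members given with values below, the calls in 1-day Kelly cells were lost in that fit (adjusted p between 0.19 and 1), the rise of RPL36AL among them (log2 0.53, adjusted p = 0.67). In 6-day Kelly cells those of RPL10, RPL22, RPL22L1, RPL26, RPL29, RPL39, RPL39L, RPS6 and RPSA were lost (adjusted p between 0.071 and 0.46), and in NGP that of RPL26L1 (adjusted p = 0.053). The calls in NGP fell to 2 without the first STM2457 input, 10 without the second DMSO input, 16 without the third DMSO input and 22 without the second STM2457 input. Those in 1-day Kelly cells fell to 20 and 21 without the first and second STM2457 input.

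**Figure D1:**
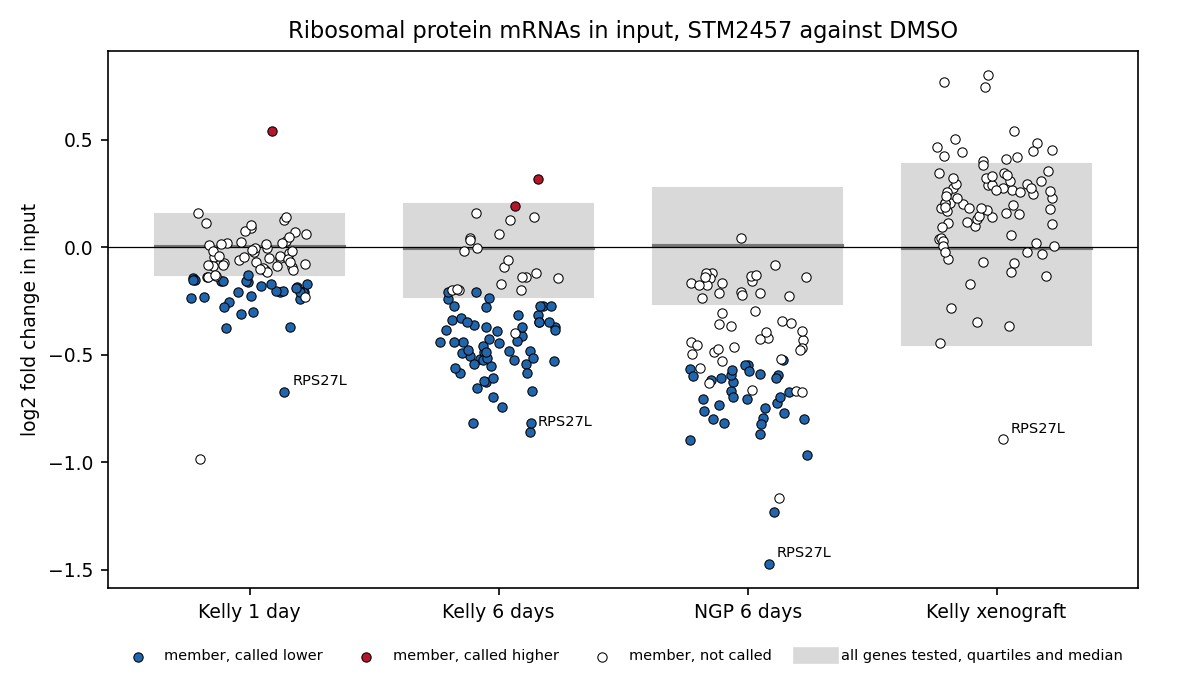
Log2 change of input level with STM2457 (vertical axis) for the tested ribosomal protein genes (one point each, Y-linked members not drawn) in the 4 experiments, beside the quartiles of all genes tested. The member medians lie at -0.10, -0.38 and -0.53 in culture and at 0.20 in the tumours.

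The share of all input counts held by the family moved with these calls. It was 8.53%, 8.16% and 8.17% in DMSO and 7.80%, 7.74% and 7.97% with STM2457 in 1-day Kelly cells. The 6-day Kelly cells had 16.0%, 16.0% and 16.2% in DMSO and 13.5%, 13.5% and 13.9% with STM2457. In NGP it was 13.7%, 13.9% and 13.7% in DMSO and 10.6%, 9.95% and 11.8% with STM2457. In each of these experiments all STM2457 libraries lay below all DMSO libraries, and the mean share changed by -0.452, -2.46 and -2.97 percentage points. Mitochondrially encoded mRNAs held 5.09%, 4.06% and 1.79% of the STM2457 inputs of 6-day Kelly cells and between 4.49% and 4.57% of the DMSO inputs, and without them in the total the change there was -2.70 points. In the tumours the order was opposite, with 14.2% and 14.9% under vehicle and 15.2% and 15.4% with STM2457.

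**Figure D2:**
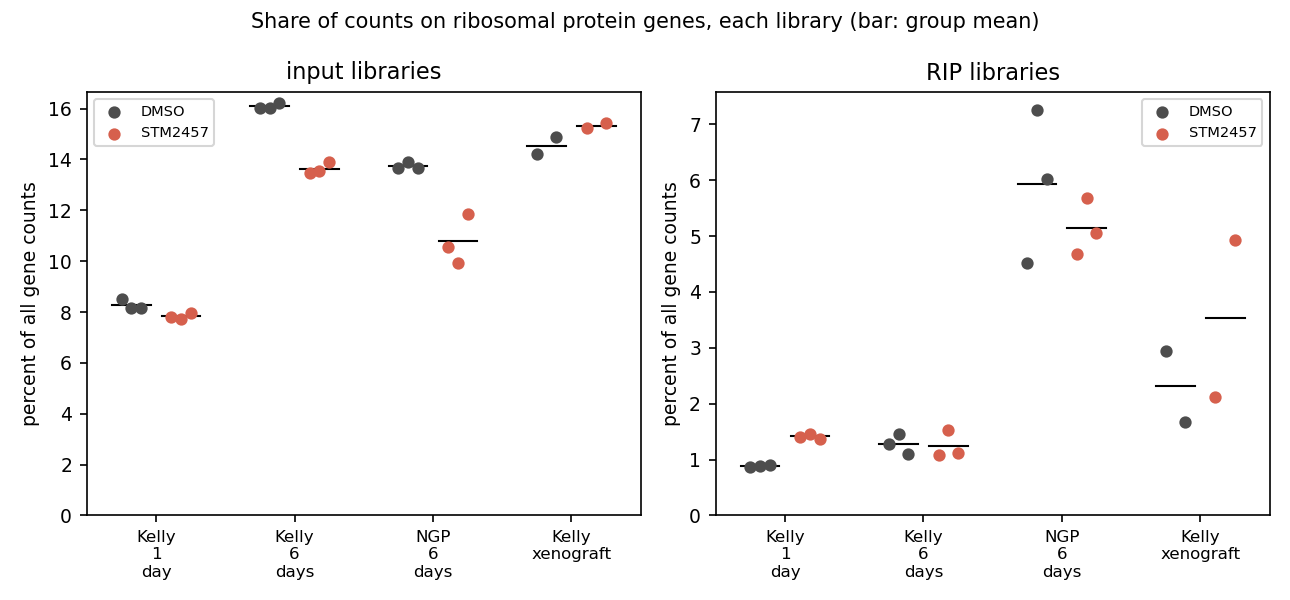
Share of all counts held by the ribosomal protein genes in each library (vertical axis, percent), by experiment, treatment and library type, with bars at group means. Input shares of the STM2457 libraries lie below those of DMSO in the 3 culture experiments, and RIP shares lie between 0.858% and 7.26%.

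Both subunits took part. In 6-day Kelly cells, 36 of 52 large subunit members were lower (median -0.37) and 26 of 32 small subunit members (median -0.40). In NGP, 23 of 50 large subunit members (median -0.56) and 12 of 33 small subunit members (median -0.50) were lower. Of 82 members tested in all 3 culture experiments, 14 were called lower in each, among them RPL6, RPL7, RPL12, RPL15, RPL23, RPL23A, RPL24, RPL26, RPL32, RPL35A, RPS7, RPS14 and RPS27L. Among all 11596 genes tested in the 3, 0.474% were called lower in each. The log2 change was below 0 in each for 62 members, against 22.1% of all genes. Counts by start tract were as follows: in 6-day Kelly cells, 35 of 47 members with a tract were lower (median -0.40) and 13 of 20 without one (median -0.32), and in NGP 18 of 47 (-0.48) and 8 of 20 (-0.55).

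RPS27L had the largest called fall in each culture experiment. It is a paralogue of RPS27 and a direct target of p53, and lacks the pyrimidine tract at the start printed above. In 1-day Kelly cells it went from 61.5, 59.3 and 59.3 CPM in DMSO to 36.3, 39.7 and 39 with STM2457 (1.59-fold lower, log2 -0.67, SE 0.07, adjusted p = 6.1e-06). In 6-day Kelly cells it went from 61.4, 70.1 and 64.1 to 45.2, 34.3 and 35.2 CPM (1.82-fold lower, log2 -0.86, SE 0.11, adjusted p = 1.9e-05). In NGP it went from 27.1, 39.8 and 24 to 11.5, 13.8 and 9.28 CPM (2.77-fold lower, log2 -1.47, SE 0.28, adjusted p = 0.0026). The groups did not overlap in any of the 3. In the tumours, RPS27L was at 32.5 and 18.8 CPM under vehicle and 11 and 14.4 with STM2457, also without overlap, but the difference did not pass the test (log2 -0.89, SE 0.58, adjusted p = 0.72). RPS27 was at 645, 576 and 599 CPM in DMSO and 615, 612 and 653 with STM2457 in 1-day Kelly cells (log2 0.02, SE 0.05, adjusted p = 0.82). It was lower in 6-day Kelly cells (log2 -0.51, SE 0.08, adjusted p = 0.00015) and in NGP (log2 -0.75, SE 0.18, adjusted p = 0.019), where the call was lost without the second DMSO input or STM2457 input replicate 1 or 3 (adjusted p up to 0.2) and the log2 change became -0.46 without the second DMSO input.

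RPL24 and RPS26 were the next largest falls in 1-day Kelly cells. RPL24, a late-joining protein of the subunit interface, went from 647, 574 and 609.6 to 467, 483 and 487 CPM (log2 -0.37, SE 0.05, adjusted p = 3.8e-05). It fell in 6-day Kelly cells from 1017, 1045 and 1008 to 828, 678 and 643 CPM (log2 -0.62, SE 0.09, adjusted p = 5.9e-05) and in NGP from 1069, 1284 and 1071 to 615, 603 and 859 (log2 -0.80, SE 0.16, adjusted p = 0.0049). No STM2457 value reached a DMSO value in these comparisons. RPS26 went from 178, 157 and 165 to 126, 132 and 135 CPM at 1 day (log2 -0.37, SE 0.06, adjusted p = 0.00019) and from 874, 878 and 872 to 513, 541 and 553 at 6 days (log2 -0.82, SE 0.06, adjusted p = 8e-08). In NGP its change did not pass (log2 -0.43, SE 0.16, adjusted p = 0.14).

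RPL27, a large subunit protein, fell in 6-day Kelly cells from 3657, 3602 and 3648 to 2330, 2367 and 1976 CPM (log2 -0.82, SE 0.08, adjusted p = 1e-06). In NGP, the largest falls after RPS27L with groups apart were RPL34 and RPL35A. RPL34 went from 561, 831 and 547 to 291, 352 and 406 CPM (1.95-fold lower, log2 -0.97, SE 0.18, adjusted p = 0.0018). RPL35A went from 558, 757 and 689 to 315, 427 and 393 CPM (1.86-fold lower, log2 -0.90, SE 0.16, adjusted p = 0.0018). Without the first STM2457 input of NGP, the calls of RPL24, RPL34 and RPL35A were lost (adjusted p = 0.092, 0.066 and 0.057), and that of RPS27L was not.

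Members known outside the ribosome behaved in several ways. RPL5 and RPL11, which with 5S rRNA bind MDM2 and so stabilise p53, both fell in 1-day Kelly cells, RPL5 from 1229, 1150 and 1235 to 1039, 1081 and 1060 CPM (log2 -0.21, SE 0.04, adjusted p = 0.0014) and RPL11 from 1486, 1384 and 1441 to 1233, 1265 and 1296 CPM (log2 -0.21, SE 0.04, adjusted p = 0.0014). At 6 days RPL11 fell in Kelly (log2 -0.39, SE 0.06, adjusted p = 0.00023) and RPL5 in NGP (log2 -0.67, SE 0.16, adjusted p = 0.017), a call lost without DMSO input replicate 2 or 3 or the first STM2457 input (adjusted p between 0.063 and 0.18). RPS6, the substrate of the S6 kinases, had log2 changes of -0.10, -0.31 and -0.46, of which that of 6-day Kelly cells passed (adjusted p = 0.0032). RPSA, also a laminin receptor, had -0.02, -0.24 and -0.17, with a call at 6 days in Kelly (adjusted p = 0.012) that was lost without DMSO input replicate 1 or 3 (0.072 and 0.079). RPLP0, the base of the stalk and a common reference gene, had -0.04, -0.06 and -0.13, and none of these passed.

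Only 3 members rose in any culture experiment. RPL36AL went from 105, 96.1 and 108 to 148, 159 and 149 CPM in 1-day Kelly cells (1.45-fold higher, log2 0.54, SE 0.05, adjusted p = 4.5e-06), with no overlap. At 6 days in Kelly its log2 change was 0.14 and in NGP -0.14, and neither passed. RPL22, an RNA-binding protein of the large subunit, rose in 6-day Kelly cells from 53.8, 66.3 and 56.1 to 89.1, 71.8 and 74.2 CPM (log2 0.32, SE 0.10, adjusted p = 0.025). Its paralogue RPL22L1 fell in the same libraries from 42.4, 50.2 and 46.7 to 43.2, 28.3 and 29.8 CPM (log2 -0.54, SE 0.14, adjusted p = 0.0083), with one STM2457 value inside the DMSO range. The call of RPL22 was lost without any of 3 libraries (adjusted p between 0.083 and 0.13; log2 0.21 without the first STM2457 input) and that of RPL22L1 without the second STM2457 input (adjusted p = 0.063). RPL29, a basic heparin-binding protein, rose at 6 days from 2113, 2195 and 2103 to 2678, 2499 and 2709 CPM (log2 0.19, SE 0.06, adjusted p = 0.037), a call lost without any of the DMSO inputs (adjusted p between 0.0865 and 0.152).

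**Figure D3:**
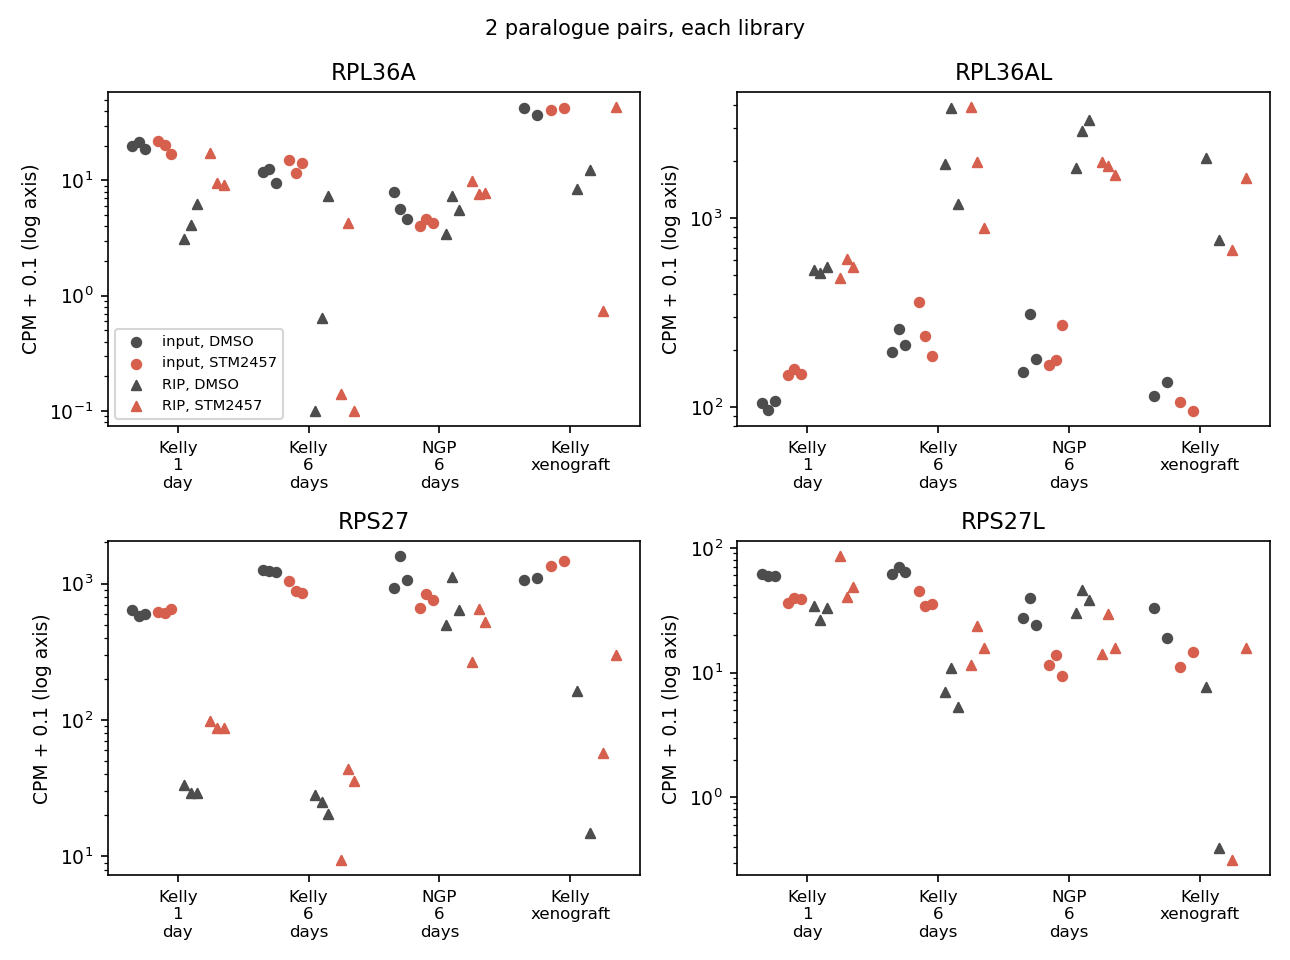
CPM plus 0.1 per library (vertical axis, log scale) in input (circles) and RIP (triangles) for RPL36A, RPL36AL, RPS27 and RPS27L, by experiment and treatment. RPL36AL lies above its input level in RIP in every experiment, and RPS27L lies lower with STM2457 than in DMSO in the inputs of all 3 culture experiments.

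Among the remaining pairs, RPL39, RPL10 and RPL3 lay above their paralogues in the DMSO inputs of Kelly cells. RPL26 did so in 1-day Kelly cells (123 RPKM against 26.0 for RPL26L1). In 6-day Kelly cells RPL26 was at 25.4 RPKM and RPL26L1 at 65.6, and at 119 and 106 with the canonical transcript length. RPL26, but not RPL26L1, shares exon bases with another gene, AC135178.3. Fragments in shared bases were not assigned, so the level of RPL26 is uncertain, as may be those of all 23 members with shared bases. RPL39 was at 364, 387 and 375 CPM in the DMSO inputs of 6-day Kelly cells and RPL39L, known from testis and tumours, at 61.7, 64.2 and 57. Both fell there (log2 -0.37, SE 0.10, adjusted p = 0.014 for RPL39 and log2 -0.44, SE 0.08, adjusted p = 0.00068 for RPL39L). In NGP RPL39L was close to absent, with 0, 0 and 0.199 CPM in the DMSO inputs. RPL10 fell in 6-day Kelly cells (log2 -0.27, SE 0.06, adjusted p = 0.0039), while its retrogene RPL10L had at most 6 counts in any library and counts in 5 of 44. RPL3 fell in 1-day Kelly cells (log2 -0.19, SE 0.03, adjusted p = 0.00093). RPL26 fell in all 3 culture experiments, with log2 changes of -0.16, -0.56 and -1.23, and RPL26L1 in NGP (log2 -0.80, SE 0.20, adjusted p = 0.022). The RPL26 calls in 1-day Kelly cells were lost without any of 4 inputs, and those of RPL26 and RPL26L1 in NGP without any of 3, the second DMSO and first STM2457 inputs among them. Without the first DMSO input the log2 change of RPL26 in 1-day Kelly cells was -0.097. Without the second DMSO input of NGP, that of RPL26 there was -0.61 and that of RPL26L1 -0.52, and DESeq2 did not call RPL26 in NGP (adjusted p = 0.17). That of RPL39 was lost without DMSO input replicate 2 or 3 or the second STM2457 input (adjusted p between 0.056 and 0.089). Between 83 and 85 members passed the filter on low counts, depending on the comparison, and RPL10L, RPL3L, RPL39L or Y-linked members, whose levels are not given, fell below it in one or more.

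The time course in Kelly was tested as the difference of the changes. The change at 6 days was lower than at 1 day for 33 of 84 members and higher for 0, with a median difference of -0.23, against 4.73% of all genes lower and 3.67% higher. RPL38, a large subunit protein needed for translation of certain Hox mRNAs, differed by -0.66 (SE 0.10, adjusted p = 0.00013), from a log2 change of -0.07 at 1 day to -0.75 at 6 days. RPL27 differed by -0.59 (SE 0.10, adjusted p = 0.00033) and RPS27 by -0.52 (SE 0.10, adjusted p = 0.0015). Between Kelly and NGP at 6 days, 0 of 84 members differed by edgeR's test, against 0.565% of all genes higher and 0.796% lower. The median difference of the members was 0.16. An unadjusted p under 0.05 was reached by 11 of 84 members and by 1747 of 13448 genes, a similar share. DESeq2 called 2 members higher in Kelly and 0 lower.

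In the tumours the members lay on the other side of 0. Of 83 tested members, 69 had a log2 change above 0, with a median of 0.20, and edgeR called 0 higher and 0 lower, as of all genes (0.0% higher and 0.0% lower). At an unadjusted p under 0.05 there were 33 of 83 members, 32 of them higher, against 968 of 11329 genes in all. DESeq2 called 20 members higher, but how many of all genes it called is not given here. That count thus shows no rise particular to the members. Leaving out 1 of the 4 inputs gave member medians between 0.16 and 0.24. The large subunit median was 0.21 and the small subunit median 0.20. Mitochondrially encoded mRNAs held 9.53% and 8.70% of counts under vehicle and 10.0% and 10.5% with STM2457, and the tumour inputs with STM2457 were the shallowest libraries; the part of either in the result was not tested.

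The change of the ratio of RIP over input with STM2457 was tested within each experiment and not between them. In 1-day Kelly cells, 68 of 84 members rose and 3 fell, with a median log2 change of 1.17 (2.25-fold), against 9.53% of all genes higher and 7.62% lower and a median of -0.03. The genes most like the members rose there as well. Among other translation genes, 12 of 20 rose and 1 fell (median 0.72). Other genes with canonical exons of at most 500 bases and at least 100 CPM had a median of 0.81 (n = 358). At 6 days in Kelly, 2 members rose and 0 fell, with a median of 0.79, against 1.26% and 0.803% and a median of 0.20. An unadjusted p under 0.05 was reached by 29 of 84 members and by 2207 of 13324 genes. The count of members called higher at 6 days rose to 44 without the first STM2457 RIP library and to 9 without the third. It fell to 1 without the third DMSO RIP library and to 0 without any of the 6 inputs. The median was 0.50 without the third DMSO RIP library and 1.04 without the first STM2457 RIP library. In NGP and in the tumours edgeR called 0 members in either direction, as of all genes (0.0%), with 14 and 2 members at an unadjusted p under 0.05 (764 and 809 of all genes), medians of 0.28 and 0.48, and 0 by DESeq2. The NGP median ranged from 0.098 without the first DMSO RIP library to 0.54 without the second, and the tumour median from -0.18 without the second STM2457 RIP library to 0.98 without the first vehicle RIP library. The input libraries of these ratios are those of the comparison above, so a fall in input raises the ratio.

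The rise in 1-day Kelly cells was also seen in RIP alone. The members held 0.858%, 0.880% and 0.897% of RIP counts in DMSO and 1.41%, 1.45% and 1.37% with STM2457. In 6-day Kelly cells the shares were 1.27%, 1.45% and 1.10% in DMSO and 1.09%, 1.53% and 1.12% with STM2457, which overlap. They also overlapped in NGP, with 4.52%, 7.26% and 6.03% against 4.69%, 5.68% and 5.06%, and in the tumours, with 2.94% and 1.67% against 2.13% and 4.93%. RIP libraries of one tumour group differed widely: RPS27 was at 162 and 14.8 CPM under vehicle and 57.1 and 299 with STM2457.

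The direction of this change depends on the scale. All 13 mitochondrially encoded mRNAs rose in RIP over input in 1-day Kelly cells, with a median of 1.44, above that of the members. Scaled to them, the member median was -0.28 in 1-day Kelly cells, -1.59 in 6-day Kelly cells and -0.02 in NGP, so that the sign turned, and 0.02 in the tumours. All genes moved to medians of -1.46, -2.20, -0.31 and -0.35 with this scaling, which shifts members and all genes alike; the member median lay above that of all genes by 1.20, 0.59, 0.29 and 0.36 on the TMM scale. With mitochondrial scaling 0 members were called higher and 29 lower in 1-day Kelly cells, where 8323 of all genes were called lower. In 6-day Kelly cells 0 members were called higher and 5 lower, where 3929 of all genes were called lower.

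**Figure D4:**
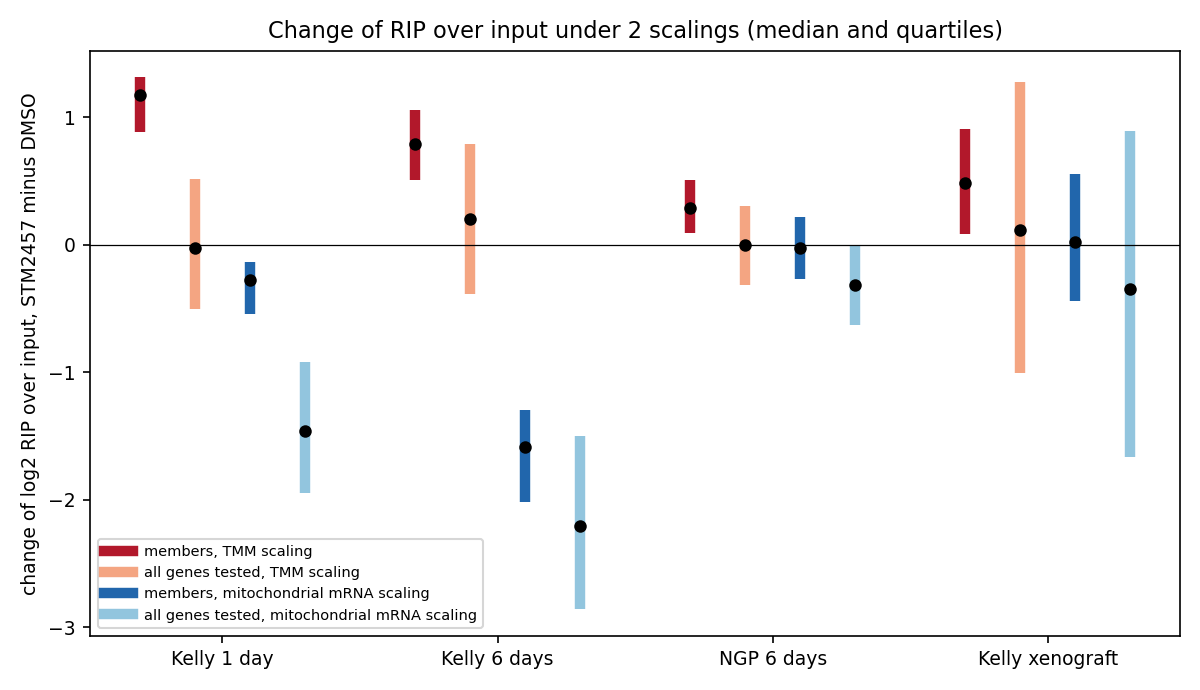
Log2 change of RIP over input with STM2457 (vertical axis) for the ribosomal protein genes and all genes in the 4 experiments (dot: median, bar: quartiles), with TMM scaling and with scaling to the mitochondrially encoded mRNAs. In 1-day Kelly cells the member median is 1.17 with TMM and -0.28 with mitochondrial scaling, and the median of all genes moves with it, from -0.03 to -1.46.

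The largest called rises in 1-day Kelly cells were RPS26, RPL34 and RPS23. RPS26 went in RIP from 7.23, 5.63 and 3.13 to 22.4, 10.9 and 14 CPM while its input fell (log2 1.98, SE 0.38, adjusted p = 0.0036 for the ratio). RPL34 went in RIP from 13.3, 18 and 16.7 to 69.8, 39.9 and 37.2 CPM (log2 1.84, SE 0.28, adjusted p = 0.00063). RPS23 went from 49.5, 44.1 and 56.7 to 128, 145 and 136 CPM (log2 1.67, SE 0.12, adjusted p = 2.9e-06). In all 3 the STM2457 RIP values lay above the DMSO values. RPS27L also rose (log2 1.64, SE 0.32, adjusted p = 0.004), with RIP values of 34.2, 26.3 and 32.8 CPM in DMSO and 85.1, 40.5 and 48 with STM2457. None of these 4 was called with mitochondrial scaling (log2 between 0.20 and 0.54). In 6-day Kelly cells the called rises were RPS27L (log2 2.29, SE 0.46, adjusted p = 0.031) and RPL38 (log2 1.77, SE 0.26, adjusted p = 0.015), and both calls were lost without any of the 6 inputs.

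The called falls in 1-day Kelly cells were RPL13, RPL29 and RPL36AL. RPL13, whose gene also hosts snoRNAs in its introns, went in RIP from 248, 265 and 242 to 154, 169.9 and 151 CPM, with a log2 change of 0.07 in input (for the ratio log2 -0.67, SE 0.09, adjusted p = 0.00031). RPL29 went in RIP from 229.9, 215 and 227 to 158, 133 and 177 CPM (log2 -0.58, SE 0.12, adjusted p = 0.0067). In both, the STM2457 values lay below all DMSO values, and both calls held in each alternative. RPL36AL, the one member enriched in RIP in every experiment, was at 535, 512 and 550.1 CPM in RIP in DMSO and 484, 608 and 554 with STM2457, which overlap. Its ratio fell while its input rose (log2 -0.43, SE 0.11, adjusted p = 0.023), and the call was lost under 7 alternatives.

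Lists of genes that work beside the family were counted in the same fits. For comparison, 9.41% of all genes were higher and 8.06% lower in input in 1-day Kelly cells. The shares were 11.9% and 14.7% in 6-day Kelly cells, and 2.07% and 2.16% in NGP. Of 20 other translation genes (elongation and initiation factors, TPT1, NPM1, RACK1 and others), 2 were higher and 6 lower in 1-day Kelly cells, 3 and 4 in 6-day Kelly cells, and 0 and 3 in NGP. Of 40 ribosome assembly factors and RNA polymerase I genes, 6 were higher and 6 lower at 1 day, 5 and 8 at 6 days, and 0 and 0 in NGP. Of the mitochondrial ribosomal protein genes, which build the separate ribosome of mitochondria, 19 of 78 were higher and 9 lower at 1 day, 6 of 77 and 25 at 6 days, and 1 of 77 and 4 in NGP. In RIP over input in DMSO, 19 of 20 of the other translation genes were lower by at least 2-fold in 1-day Kelly cells (median -2.60), 19 at 6 days (median -3.99), 6 in NGP (median -0.47) and 7 in the tumours (median -2.02). The shares of all genes lower by at least 2-fold were 29.1%, 27.3%, 19.0% and 2.15% in the same order. The mitochondrial ribosomal protein genes lay closer to the typical gene, with medians of -0.91, -1.21, -0.09 and -0.41.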

How the data were processed

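Counts per gene were deposited by the authors for each library: per the file headers, featureCounts 1.5.3 counted fragments over exons by gene name against GENCODE 33 protein-coding genes, with no option for multi-mapping or overlapping fragments. The submitters' processing notes name HISAT2 2.1.0, Trimmomatic 0.36 and GRCh38. Counts were used as deposited. Genes passed edgeR's filterByExpr (minimum count 10, minimum total 15) within each experiment. edgeR 4.0.16 (TMM, quasi-likelihood test, Benjamini-Hochberg adjustment over all genes tested, threshold 0.05) compared STM2457 with DMSO in the inputs of each experiment, RIP with input in DMSO (called from 2-fold), the change of that ratio with STM2457, and differences between experiments. The fits were tested on simulated data. CPM and RPKM were computed from the counts. Alternatives were RLE factors, no filter, DESeq2 1.42.0, a replicate block, one fit of all inputs, scaling to mitochondrial mRNAs, other lengths for RPKM and leaving out each library. Exon structure came from GENCODE 44 canonical transcripts and start windows from RefSeq.

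The members and lists were chosen with earlier results of these data known. Named members were the up to 3 largest called rises and falls per comparison with groups apart, the 3 highest and 3 lowest mean ratios of RIP over input, the 3 highest RPKM, paralogue pairs, and RPLP0, RPSA, RPS6, RPL5 and RPL11. The spike-in RNAs were not analysed here. A few named genes are not reported here.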

Additional observations from a re-analysis of the deposited data

Results flagged for a closer look

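In 2 comparisons the ribosomal protein genes differed between experiments by a test of the difference itself. The change of input level with STM2457 was different at 6 days and at 1 day in Kelly for 33 members, all lower at 6 days. The ratio of RIP over input in DMSO was different in Kelly and NGP at 6 days for 73 members, all lower in Kelly on the TMM scale. With mitochondrial mRNA scaling the direction turned, with 33 members higher in Kelly, 2 lower and a median difference of 1.44. Of all genes, 10442 were then higher in Kelly and 102 lower. Each experiment was one set of libraries, and cell line, time and library set cannot be told apart in these differences.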

How the results depend on the processing

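Scaling to mitochondrial mRNAs moved the RIP results most: the median ratio of RIP over input in DMSO became -1.94 in 1-day Kelly cells, 0.46 in 6-day Kelly cells (1 member lower), -0.79 in NGP (33 lower) and -1.07 in the tumours (0 lower). Of all genes, 45 were then lower in 6-day Kelly cells, 975 in NGP and 0 in the tumours. The median change of the ratio became -0.28 in 1-day Kelly cells, -1.59 in 6-day Kelly cells and -0.023 in NGP, with 0 members higher in both Kelly experiments. Added after seeing the data, it turned the median difference of the ratio between Kelly and NGP to 1.44, with 2 members and 102 of all genes lower in Kelly. Of the named calls it reversed RPL22L1 (1.72), RPL26L1 (2.61) and RPL7 (1.14) in RIP over input and RPL38 (-0.50) in the change, all in 6-day Kelly cells. Without the filter, the median change of the ratio in 1-day Kelly cells was 1.32, the median difference between 6-day Kelly cells and 1 day was -0.17, 1 member was called higher in RIP over input change in NGP, and 7 members in the tumour inputs. DESeq2 gave a median change of 1.26 in 1-day Kelly cells, 10 members higher in 6-day Kelly cells, and 20 in the tumour inputs. One fit of all inputs called 0 members lower in 1-day Kelly cells, 42 in 6-day Kelly cells, 56 in NGP and 8 higher in the tumours. Correlations between libraries of the same replicate number lay between -0.322 and 0.251, and 0 of 12 group pairs had all over 0.1. With 2 or 3 libraries per group, such values cannot settle whether the numbers mark pairs, and the main fits treated libraries as unpaired. A replicate block called 0 members in the change of the ratio in 6-day Kelly cells and 7 in the tumour inputs. How many of all genes these alternatives called in the tumour inputs is not given here, so the member counts there show no rise particular to the family. Without mitochondrial mRNAs in the total, the input share in 6-day Kelly cells changed by -2.70 percentage points. RPKM medians were 423, 676, 646 and 667 with the longest transcript and 883, 1312, 1466 and 1233 with the canonical one, the latter added after seeing the data.

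Leaving out one library at a time, members called lower in input numbered 20 to 37 in 1-day Kelly cells, 55 to 69 in 6-day Kelly cells and 2 to 39 in NGP, and 1 to 21 were called higher in the tumours. Members lower in RIP numbered 76 to 78, 75 to 77, 48 to 58 and 0 to 64. Members whose ratio rose numbered 63 to 71 (median 1.13 to 1.27) in 1-day Kelly cells and 0 to 44 (median 0.50 to 1.04) in 6-day Kelly cells, and in NGP the median ranged from 0.098 to 0.54. In the tumours the median ratio ranged from -3.81 to -2.83 and its change from -0.18 to 0.98. The median difference ranged from -0.28 to -0.17 between 6-day Kelly cells and 1 day and from 0.11 to 0.25 between Kelly and NGP. The causes were not tested. Members near the count filter, such as RPL3L, are limited by depth.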
